A study of Mus musculus with 15 samples.

Results

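Transcript levels of 7 genes were followed through 15 RNA-seq samples of mouse embryonic fibroblasts: the CCN genes Ctgf, Cyr61, Nov, Wisp1 and Wisp2, and Ankrd1 and Amotl2, which like Ctgf and Cyr61 are widely used as readouts of the transcriptional co-activator YAP. They were chosen by symbol, and 12 of the 65522 transcription units in the table carry one of these symbols. Transcription units are the loci assembled and merged by the authors, and the values are FPKM, fragment counts scaled to transcript length and to library size. Ctgf and Cyr61 have a single unit each, and the other 5 genes have a pair of units at the same locus. The unit with the higher mean over the 15 samples is given throughout, with the other of the pair as a check.

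All cells were female, on the C57BL/6 background, and were grown to a stated sub-confluent density before RNA was taken. WT primary cells (wild-type CIZ1 +/+) came from 3 embryos (E13.1, E13.8, E14.4) and primary CIZ1 null cells (CIZ1 -/-, a neomycin gene trap inserted after the first exon of Ciz1) from 3 others (E13.15, E13.17, E14.2), and each of the 6 populations has 1 culture-adapted line that grew out of it through continued passage. In E13.17, primary and adapted, a GFP-CIZ1 transgene that doxycycline can switch on is also present, and these cells had no treatment. Values of the 3 embryos of a genotype are given in a fixed order throughout, E14.4, E13.1, E13.8 for WT and E14.2, E13.15, E13.17 for CIZ1 null. Another untreated CIZ1 -/- primary population with this transgene is numbered S13. Primary cells of the same genotype treated with doxycycline at 5 to 10 µg/ml, numbered S14 and S15, complete the set. The paper names E13.17 and 1 other population as those it induced, and lists no further primary cells with the transgene. S13 is therefore probably that other population, and the treated samples probably come from the same populations as the untreated ones. Which treated sample belongs to which population cannot be told from the labels. An adapted line is a single outgrowth, so nothing here separates adaptation in general from what became of that line. The questions asked of the 7 genes were how they change when fibroblasts adapt to culture, whether loss of CIZ1, a nuclear matrix protein, alters them in primary or in adapted cells, and whether re-expression of CIZ1 does.

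CCN proteins are secreted, modular proteins of the extracellular matrix that bind integrins, LRP receptors and heparan sulphate proteoglycans, and adjust how a fibroblast reads its matrix and its growth factors. YAP and its paralogue TAZ carry no DNA-binding domain and act through the TEAD factors. In crowded or poorly spread cells the Hippo kinases, MST (Stk3, Stk4) followed by LATS, phosphorylate YAP and TAZ and hold them in the cytoplasm, whereas a stiff matrix and high cytoskeletal tension let them into the nucleus, where Ctgf, Cyr61, Ankrd1 and Amotl2 are among the genes that respond first. These mechanisms are background and were not measured here.

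The letters that TEAD factors recognise can be seen in the promoters. Of the 7 genes, Cyr61 (listed as Ccn1), Ankrd1 and Amotl2 have a promoter window in the RefSeq table used here (GRCm38.p6, 250 bases before the start of the gene and the rest of 300 after it). The core GGAATG, or CATTCC on the other strand, with no overlap between matches, was present in each of these 3 windows and in 14.7% of all 32851 windows. Ankrd1 holds 2 matches, and 1.36% of all windows hold at least 2. None of the 3 windows holds the CArG box of serum response factor, which is found in 1.63% of windows. The stretches are printed 5′ to 3′ on the strand of the gene with the match in capitals. They are matches of letters only, and whether TEAD factors bind them was not tested. Distances are from the RefSeq start. The Cyr61 match begins 103 bases before it, in chr3:145650071-145650100 (minus strand). The Ankrd1 matches begin 210 and 123 bases before it, in chr19:36120037-36120066 and chr19:36119950-36119979 (minus strand). The Amotl2 match begins 65 bases before it, in chr9:102717727-102717756 (plus strand). In the GENCODE annotation Amotl2 begins earlier, at chr9:102716672, and Ankrd1 reaches chr19:36120099, so the matches of both genes lie inside their spans there.
Cyr61: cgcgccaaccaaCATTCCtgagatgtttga
Ankrd1, far match: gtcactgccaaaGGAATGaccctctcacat
Ankrd1, near match: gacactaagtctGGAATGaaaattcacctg
Amotl2: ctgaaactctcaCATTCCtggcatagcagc

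Ciz1 itself was at 18.7 to 25.0 FPKM in the 6 WT samples, at 0.0546 to 0.724 in the 7 untreated CIZ1 null samples and at 191 and 296 in the treated samples, which is what each library's label says. The number of reads per sample is not given. Depth relative to WT primary E14.4, read from the size of the smallest steps in low values, ranged from 0.481 (S13) to 1.62, and was 0.539 to 1.18 in adapted lines. All 8 fibroblast markers were detected in each group, with a summed level of 9960 to 10915 FPKM in the 6 primary populations and 2198 to 6453 in the 6 adapted lines. In adapted cells Thy1 ranged from a listed 0 to 584 FPKM. Not every marker was lower there: Pdgfra reached 63.2 FPKM in adapted and 19.4 in primary cells, Pdgfrb 97.4 and 74.5, and Col3a1 1063 and 745. The rest had their highest value in primary cells. Of 5 markers each, 2 for epithelium (Epcam, Cdh1), 3 for endothelium (Pecam1, Cdh5, Tie1), 1 for blood (Ptprc), 4 for skeletal muscle (Myod1, Myog, Myf5, Actc1), 2 for cartilage (Acan, Matn1) and none for fat stayed under 1 FPKM in all 15 samples, as did the neural marker Gfap. Summed blood markers were at 17.2 to 31.5 FPKM in the 6 primary populations and 4.25 to 6.33 in the 6 adapted lines, epithelial ones at 1.01 to 12.7 and 0 to 0.413, skeletal muscle ones (Des) at 6.14 to 13.6 and 0 to 0.687, cartilage ones at 6.35 to 18.8 and 0.496 to 19.96, neural ones at 1.75 to 7.66 and 0.132 to 24.6, fat ones at 8.22 to 27.6 and 5.85 to 86.9, and endothelial ones reached at most 2.70 in any sample. The part of these markers in the results was not tested.

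On adaptation of WT cells Ctgf, Wisp1 and Amotl2 fell, 3 of the 7 genes, while 6.68% of the 19919 units tested were called lower in the same comparison and 2.87% higher (limma on log2(FPKM + 1), Benjamini-Hochberg over all units, threshold 0.05). With the replicate block Wisp1 alone of the 3 was called, and none was when any single WT primary sample was left out. All 7 estimates were negative, with a median log2 change of -1.22, beside a median of -0.05 over all units. The sign of 2 of them hung on a single adapted line, since Wisp2 was at 0.49 without E14.4 and Ankrd1 at 0.84 without E13.1. WT primary and WT adapted samples did not overlap for 4 of the 7, the 3 called and Cyr61, a separation that 38.7% of all units also showed. In CIZ1 null cells the 7 estimates were again negative, with a median of -0.92 beside -0.04 over all units, but none passed the test, where 3.47% of 20044 units were called lower and 1.4% higher. The median is the estimate of Ankrd1, and 3 of the signs hung on a single adapted line: Ankrd1 was at 1.04 without E13.17, Nov at 0.85 without E13.15 and Amotl2 at 0.31 without E14.2. Mean FPKM of Nov (20.2 primary, 24.6 adapted) and Ankrd1 (50.0 and 77.4) was higher in adapted cells. A single gene, Wisp1, had groups that did not overlap there, against 37.1% of units. With both genotypes in a fit over 12 samples, which shares its samples with the other 2 comparisons, Wisp1 and Ctgf were called lower, 2 of 7, beside 19.1% of 20046 units lower and 14.1% higher. In bulk cultures, fewer cells of a kind and less RNA per cell cannot be told apart.

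**Figure D1:**
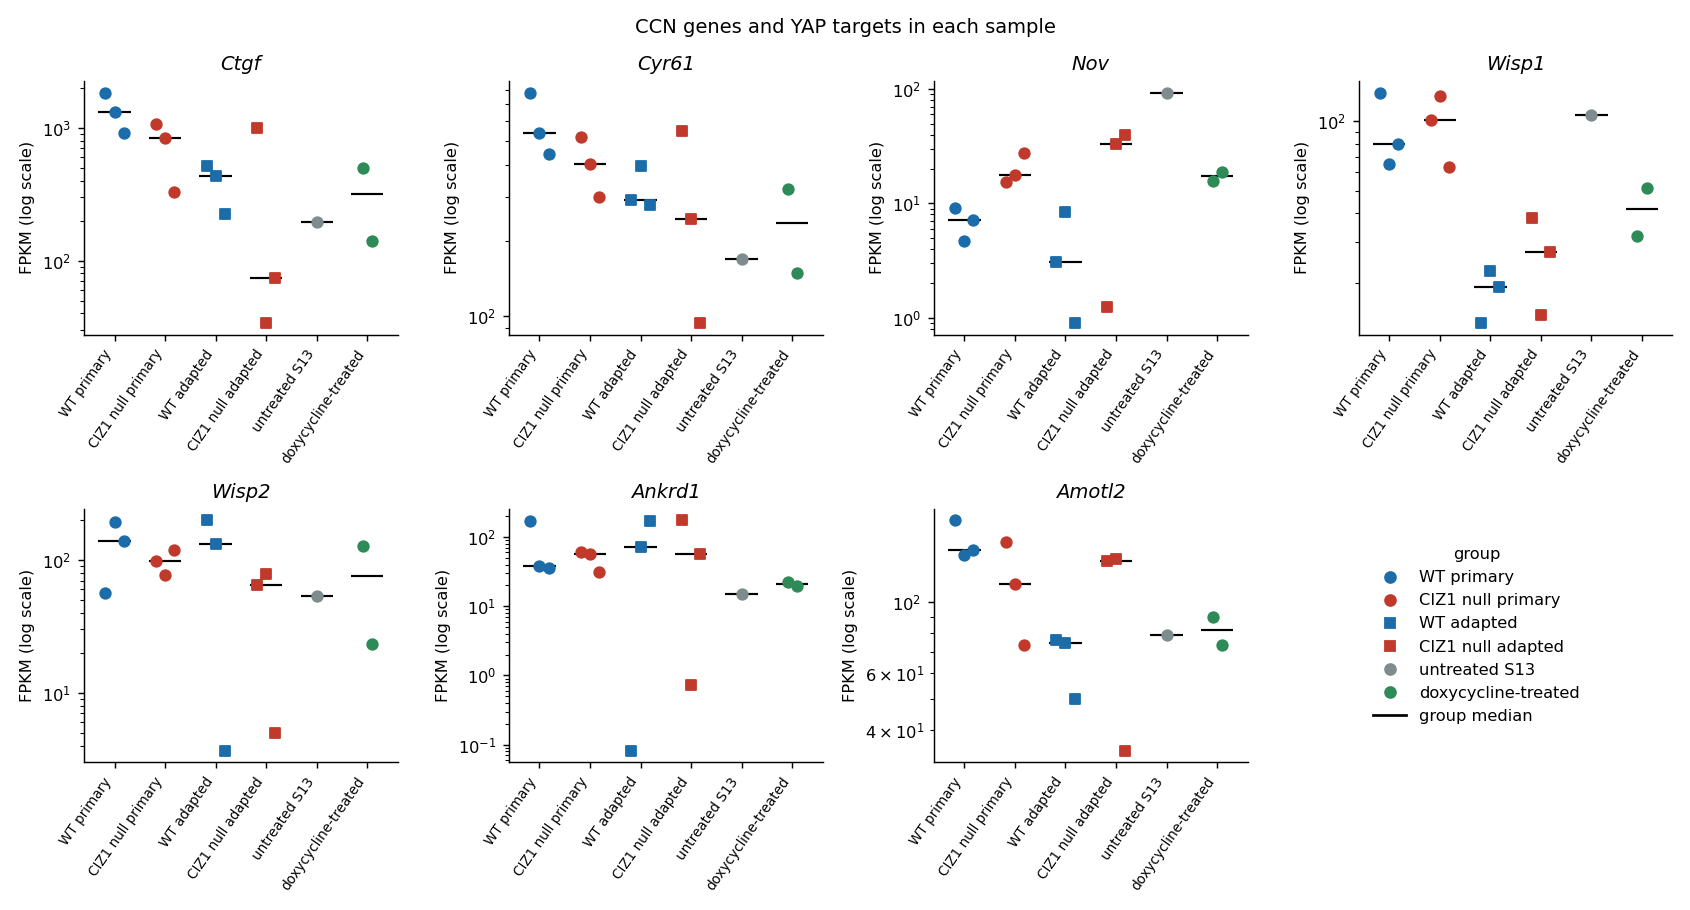
FPKM on a log axis in each of the 15 samples, by group, for the 7 genes, with the group median as a line (circles primary, squares adapted). WT adapted Ctgf, Wisp1 and Amotl2 values all lie below the WT primary ones, and among CIZ1 null adapted lines Ctgf ranges from 33.8 to 992 FPKM.

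Ctgf, a secreted mediator of fibrosis and one of the first YAP targets described, had the highest level of the 7. It stood at 1839, 1313 and 916 FPKM in WT primary cells and at 225, 515 and 435 FPKM in the adapted lines of the same embryos. Every WT adapted line was below every WT primary population, and the log2 change was -1.82 (SE 0.38, 95% interval -2.73 to -0.90, adjusted p = 0.0383, limma). Blocking on the embryo gave an adjusted p of 0.0810, leaving out any of the 3 WT primary samples gave 0.0995 to 0.140, and leaving out adapted E13.8 gave 0.0652. CIZ1 null populations held 1064, 839 and 329.8 FPKM as primary cells and 74.0, 992 and 33.8 FPKM as adapted lines. E13.15 thus kept its level while the others were 14.4 and 9.75 times lower than their own primary populations, and the change was -2.28 (95% interval -5.21 to 0.66, adjusted p = 0.263, limma). Leaving out adapted E13.15 gave -3.70 (adjusted p = 0.0216). Over both genotypes Ctgf fell by 2.05 on the log2 scale (adjusted p = 0.0365, limma), but it passed in 7 of 18 alternatives, and with each sample left out in turn the adjusted p ran from 0.0018 (without adapted E13.15) to 0.0785 (without primary E14.2). In this locus (chr10:24549441-24598929) Ctgf, on the plus strand, shares its span with Gm15270, a transcript on the minus strand listed at 58.6% to 71.1% of the Ctgf value in all 15 samples, and the library kit does not mark strand.

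Cyr61, the other prototypical YAP target of the family and an integrin ligand that promotes adhesion, moved less. Its levels were 780.4, 538 and 446 FPKM in WT primary cells and 279, 292 and 398 FPKM in their adapted lines. These groups did not overlap, but the log2 change of -0.84 (SE 0.26, 95% interval -1.45 to -0.23) had an adjusted p of 0.0843 (limma) and was not called. CIZ1 null cells went from 521, 404 and 298 FPKM to 94.1, 548 and 245 FPKM, with a change of -0.77 (95% interval -2.25 to 0.72). As for Ctgf, adapted E13.15 was the CIZ1 null line above its primary population. Over both genotypes the change was -0.80 (adjusted p = 0.0947, limma), a value that became -1.08 (adjusted p = 0.0117) when adapted E13.15 was left out. The unit (chr3:145646525-145677808) reaches across the neighbouring lincRNA Gm17501, whose unit stood at 19.4% to 28.7% of the Cyr61 value.

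Nov, a CCN protein often described as opposing Ctgf, was the least abundant. WT primary cells held 9.13, 4.67 and 7.17 FPKM and their adapted lines 0.897, 3.09 and 8.44. CIZ1 null primary cells held 15.4, 17.6 and 27.7 FPKM and their adapted lines 39.3, 1.25 and 33.3. The direction of the change on adaptation was mixed within each genotype, with 3 of 6 embryos lower and 3 higher, and neither comparison passed the test (adjusted p = 0.337 in WT and 0.784 in CIZ1 null cells, limma). The second unit at this locus (chr15:54745702-54756588) stood at 56.7% to 126% of the first in the 14 samples with at least 1 FPKM, so the split of reads between the pair is uncertain for Nov.

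Wisp1, a WNT1-inducible CCN protein, was the member with the most even change. It was at 133, 65.3 and 79.4 FPKM in WT primary cells and at 19.3, 13.4 and 22.6 FPKM in their adapted lines. In CIZ1 null cells it was at 101, 128 and 63.3 FPKM before and 27.1, 38.3 and 14.6 FPKM after adaptation. No adapted line of either genotype reached the lowest primary population. Wisp1 fell by 2.23 on the log2 scale in WT cells (SE 0.32, adjusted p = 0.0168, limma), while in CIZ1 null cells the change was -1.87 (SE 0.41, 95% interval -2.86 to -0.89) with an adjusted p of 0.0538 that missed the threshold. With the embryo as a block these p-values were 0.0381 and 0.0708, and with a single WT primary sample left out the first was 0.0662 to 0.0852. Over both genotypes the change was -2.05 (SE 0.27, 95% interval -2.64 to -1.46, adjusted p = 3.9e-04, limma), and it was called in all 19 alternatives, with changes from -2.21 to -1.60 and adjusted p between 2.6e-04 and 0.0015. The second unit at chr15:66868818-66923216 gave -1.77 in WT cells (adjusted p = 0.0301, limma) and -1.43 in CIZ1 null cells (adjusted p = 0.0692). It stood at 65.1% to 104% of the first unit in the 15 samples, so the split of reads is uncertain for Wisp1 too. The size of the fall over both genotypes depended on the unit, at -2.05 in the first and -1.60 in the second.

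Wisp2, the CCN protein without the C-terminal cystine knot module, split the lines. WT cells held 56.1, 192 and 139 FPKM as primary cells and 3.67, 199 and 131 FPKM as adapted lines. CIZ1 null cells held 97.9, 76.9 and 118 FPKM as primary cells and 5.01, 64.6 and 77.8 FPKM as adapted lines. Adapted E14.4 and E14.2 were 15.3 and 19.5 times below their primary populations, and the other 4 lines were between 1.52 times below and 1.04 times above theirs. The group changes of -1.21 and -1.63 had 95% intervals of -4.59 to 2.16 and -3.93 to 0.67 and were not called.

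Ankrd1, an ankyrin repeat protein of the sarcomere and nucleus that responds to mechanical load, varied most between lines. Its FPKM was 168, 38.4 and 35.8 in WT primary cells and 170.5, 0.0817 and 72.0 in their adapted lines. In CIZ1 null cells it was 61.7, 56.7 and 31.6 before and 57.1, 174 and 0.716 after adaptation. Adapted E13.1 and E13.17 were below 1 FPKM, while the other 4 adapted lines lay between 57.1 and 174, within or above the primary range. The changes of -1.39 (SE 1.86) and -0.92 (SE 1.60) were smaller than their errors. In the second unit of the locus (chr19:36111960-36119844) the same 2 lines stood lowest, at a listed 0 and at 0.358 FPKM.

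Amotl2, an angiomotin-family scaffold that binds YAP and is itself a YAP target, was at 180.5, 140.4 and 146 FPKM in WT primary cells and at 49.8, 76.5 and 74.5 FPKM in their adapted lines. It fell by 1.22 on the log2 scale (SE 0.22, 95% interval -1.75 to -0.69, adjusted p = 0.0273, limma). The adjusted p was 0.0723 under the embryo block and 0.0973 to 0.117 with a single WT primary sample left out. In CIZ1 null cells it was at 154, 114 and 73.5 FPKM before and 34.4, 135 and 137 FPKM after adaptation. E14.2 was lower and both others were higher, and the change of -0.34 (95% interval -1.73 to 1.06) was not called. The estimate of the difference between genotypes in the change on adaptation was 0.88 (SE 0.67, 95% interval -0.60 to 2.37) with an adjusted p of 0.996 (limma). The interaction was called for none of the 7 genes, and for 0% of the 20046 units tested (0 units by limma, with 928 at an unadjusted p under 0.05).

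Wisp3, the sixth CCN gene, was listed at 0 in all 15 samples. Set in order by group median, the highest group was WT primary for Ctgf (1313 FPKM), Cyr61 (538), Wisp2 (139) and Amotl2 (146). It was the single sample S13 for Nov (93.3) and Wisp1 (107), and WT adapted for Ankrd1 (72.0). For Ctgf, Cyr61 and Wisp2 every pair of neighbours in that order overlapped. The gaps given next are between groups of 1 to 3 samples, and the share of all units with such gaps was not counted. For Wisp1 the gap lay between WT primary (median 79.4 FPKM) and the treated samples (41.8), with all adapted lines below. For Nov, S13 lay above CIZ1 null adapted (33.3) and the treated samples (17.2) above WT primary (7.17) with no overlap, while the CIZ1 null adapted line E13.15, at 1.25, was below all WT primary values. For Amotl2, WT primary stood apart from CIZ1 null adapted (135) at the top and S13 (78.8) from WT adapted (74.5) at the bottom, and for Ankrd1 WT primary (38.4), treated samples (21.2) and S13 (15.03) did not overlap.

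Taken embryo by embryo, Wisp1 was the gene of the 7 that was lower in the adapted line of all 6 embryos, as were 18.5% of the 20046 units with a mean of at least 1 FPKM. Its mean change was -2.05 ± 0.37 on the log2 scale (SD, n = 6 embryos), with an exact two-sided sign-flip permutation p of 0.0313, the smallest that 6 pairs allow, unadjusted over the 7 genes tested. Ctgf, Cyr61 and Wisp2 were lower in 5 of 6 embryos, with exact permutation p of 0.0625, 0.125 and 0.0625. The means were -2.05 ± 1.57 for Ctgf, -0.80 ± 1.04 for Cyr61 and -1.42 ± 1.88 for Wisp2 (SD, n = 6). Amotl2 was lower in 4 of 6 (-0.78 ± 1.17) and Nov and Ankrd1 in 3 of 6 (-0.70 ± 1.69 and -1.16 ± 2.85).

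**Figure D2:**
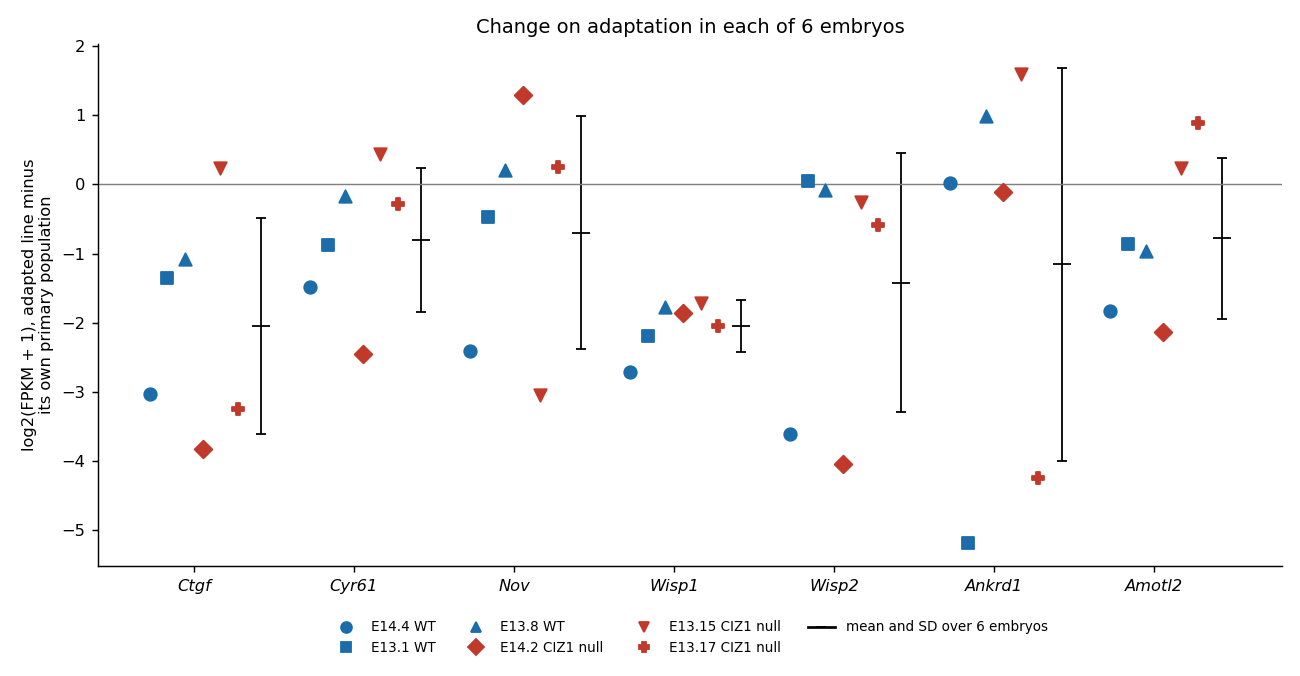
Difference in log2(FPKM + 1) between each adapted line and its own primary population (y axis) for the 7 genes (x axis), with a symbol per embryo, WT in blue and CIZ1 null in red, and the mean and SD over 6 embryos in black. The 6 Wisp1 points lie between -2.72 and -1.71, while Ankrd1 runs from -5.19 to 1.60.

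The spread between lines was itself larger in adapted cells. The median SD of the 7 genes on the log2(FPKM + 1) scale was 0.50 in WT primary and 0.63 in WT adapted cells, and 0.51 in CIZ1 null primary and 2.07 in CIZ1 null adapted cells (n = 3 each). The median over all 20046 units was also larger in adapted cells, at 0.36 against 0.18 in WT and 0.36 against 0.22 in CIZ1 null cells. These are descriptions without a test. All 7 genes had a larger SD in CIZ1 null adapted than primary cells, as had 72.2% of units, and 5 of 7 did in WT cells, as had 77.2%. Ankrd1 had the largest SD of the 7 in both sets of adapted lines (3.91 and 3.49), and Wisp1 the smallest in CIZ1 null adapted lines (0.68). Which line was low differed between genes, with E13.1 and E13.17 low for Ankrd1, E14.4 and E14.2 for Wisp2, E13.17 and E14.2 for Ctgf, and E14.4 and E13.15 for Nov.

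Loss of CIZ1 changed none of the 7 genes past the threshold, in primary or in adapted cells. In primary cells 0.00511% of 19566 units were called, which is Ciz1 alone, and in adapted cells 0.00501% of 19976, again Ciz1 alone (limma, with 1225 and 804 units at an unadjusted p under 0.05). The paper, with Cuffdiff at q under 0.05, reported larger sets of CIZ1-dependent units in primary and in adapted cells. The counts here therefore do not mean that Ciz1 alone responds. For Nov, all 3 CIZ1 null primary populations (15.4 to 27.7 FPKM) were above all 3 WT ones (4.67 to 9.13 FPKM), the only gene of the 7 whose groups did not overlap in primary cells, where 11.9% of units had such groups, a share near that of 1 in 7. The log2 change was 1.41 (SE 0.28, 95% interval 0.74 to 2.08), with an unadjusted p of 0.0017 and an adjusted p of 0.582 (limma), and over all alternatives the change lay between 1.17 and 1.96. In adapted cells the estimate for Nov was 1.803 (95% interval -1.05 to 4.65) with overlapping groups, since E13.15 was at 1.25 FPKM. No gene of the 7 separated the genotypes in adapted cells, where 8.28% of units did.

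The other 6 genes had primary estimates from -0.97 (Ctgf, 95% interval -2.05 to 0.11) to 0.08 (Wisp1, -0.71 to 0.87). Ctgf at 330 to 1064 FPKM in CIZ1 null and 916 to 1839 FPKM in WT primary cells overlapped between E14.2 and E13.8, and Cyr61 (-0.52, 95% interval -1.16 to 0.11) and Amotl2 (-0.50, -1.13 to 0.13) overlapped likewise. In adapted cells Ctgf had an estimate of -1.43 (95% interval -4.28 to 1.42), with adapted E13.15 above and the other CIZ1 null lines below all WT lines. A change of 1 on the log2 scale upward lies inside the adapted interval of all 7 genes, and a change of the same size downward inside that of 5, all but Wisp1 and Amotl2.

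**Figure D3:**
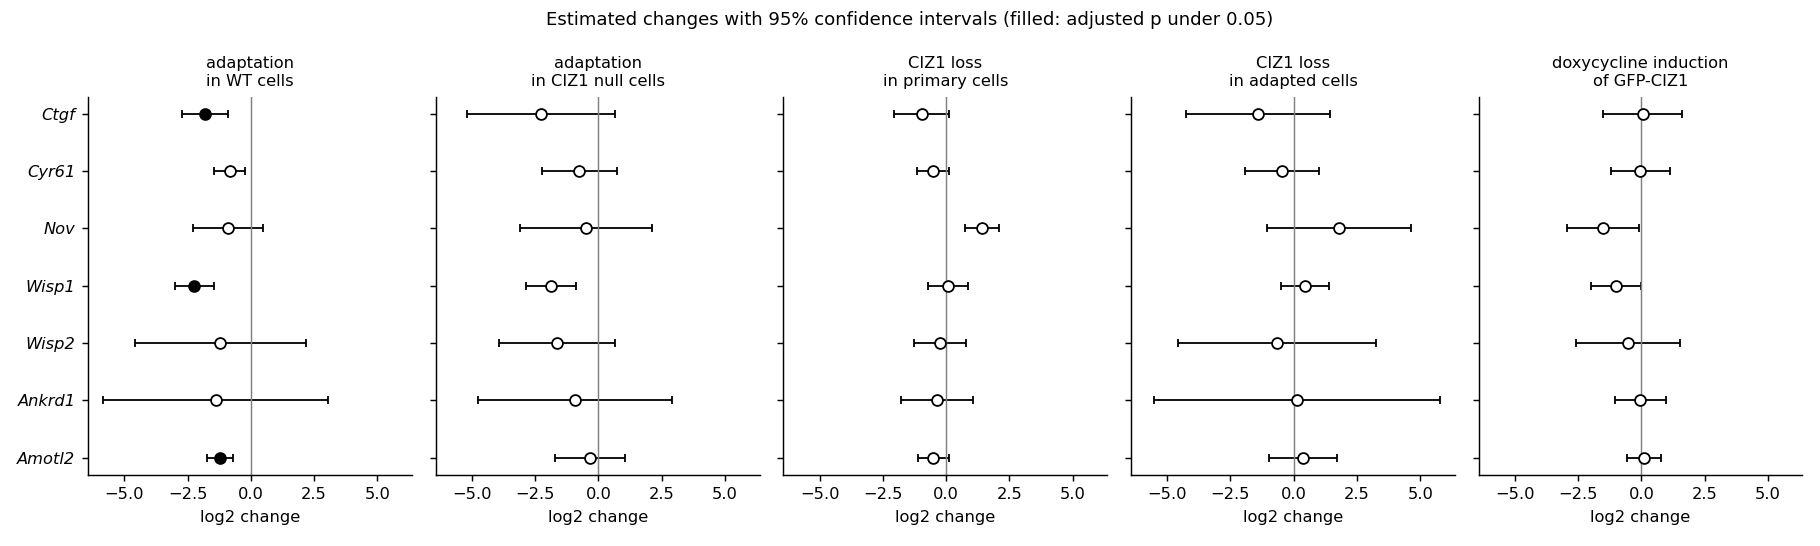
Estimated log2 change (x axis, limma) with its 95% confidence interval for the 7 genes in 5 comparisons, filled where the adjusted p was under 0.05. Ctgf, Wisp1 and Amotl2 on adaptation of WT cells are the 3 filled points.

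After doxycycline none of the 7 genes passed the test, in a comparison of 2 treated with 2 untreated samples that called 0.0101% of 19768 units (limma, 2 units, Ciz1 among them, with 347 at an unadjusted p under 0.05). Nov was at 15.6 and 18.8 FPKM in S14 and S15 and at 27.7 and 93.3 FPKM in untreated E13.17 and S13, with a log2 change of -1.52 (95% interval -2.95 to -0.09, unadjusted p = 0.0404, adjusted p = 0.99996, limma). Wisp1 was at 32.04 and 51.6 FPKM treated and at 63.3 and 107 FPKM untreated, a change of -0.996 (95% interval -1.97 to -0.02, unadjusted p = 0.0467, adjusted p = 0.99996). For both, treated samples were below untreated ones, and 19.7% of all units had groups that did not overlap. S13, whose Nov value is the highest of the 15, decides the size for Nov, since the change without it was -0.66. Ctgf was at 498 and 139.9 FPKM treated and 329.8 and 194 FPKM untreated, Cyr61 at 321 and 148 against 298 and 169, Wisp2 at 127 and 23.2 against 118 and 53.2, Ankrd1 at 22.6 and 19.8 against 31.6 and 15.03, and Amotl2 at 90.1 and 73.6 against 73.5 and 78.8. These 5 overlapped, with changes between -0.53 and 0.10. Treated and untreated samples were not paired, since the labels give no embryo for S14 or S15, although the paper induced cells of E13.17. The paper lists no primary cells with the transgene beyond E13.17 and the other population it induced. The treated samples thus probably come from the same populations as the untreated ones. The test ignores this pairing and takes as independent samples that share a population.

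Over the 15 samples, some of these genes moved together, given here as a description. The points include 6 pairs from the same embryo, treated and untreated samples that share a population, and groups that differ. Ctgf and Cyr61 had a Pearson correlation of 0.85 on the log2(FPKM + 1) scale, or 0.75 after each group's mean was removed, and leaving out each sample in turn gave 0.82 to 0.97. Cyr61 and Amotl2 had 0.80 and 0.84 by the same measures, and Wisp1 and Ankrd1 0.45 and 0.74. Nov ran the other way, with -0.49 against Ctgf and -0.54 against Cyr61, or -0.71 and -0.59 without group means. Among the 4 established YAP readouts, Ankrd1 had correlations of 0.46 with Ctgf, 0.35 with Cyr61 and 0.03 with Amotl2, below those of Cyr61 with Ctgf and Amotl2. Ctgf and Amotl2 had 0.59, or 0.44 without group means, near the 0.46 and 0.41 of Ctgf and Ankrd1. Leaving out each sample in turn gave overlapping ranges, 0.47 to 0.93 for the former pair and 0.20 to 0.65 for the latter.

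**Figure D4:**
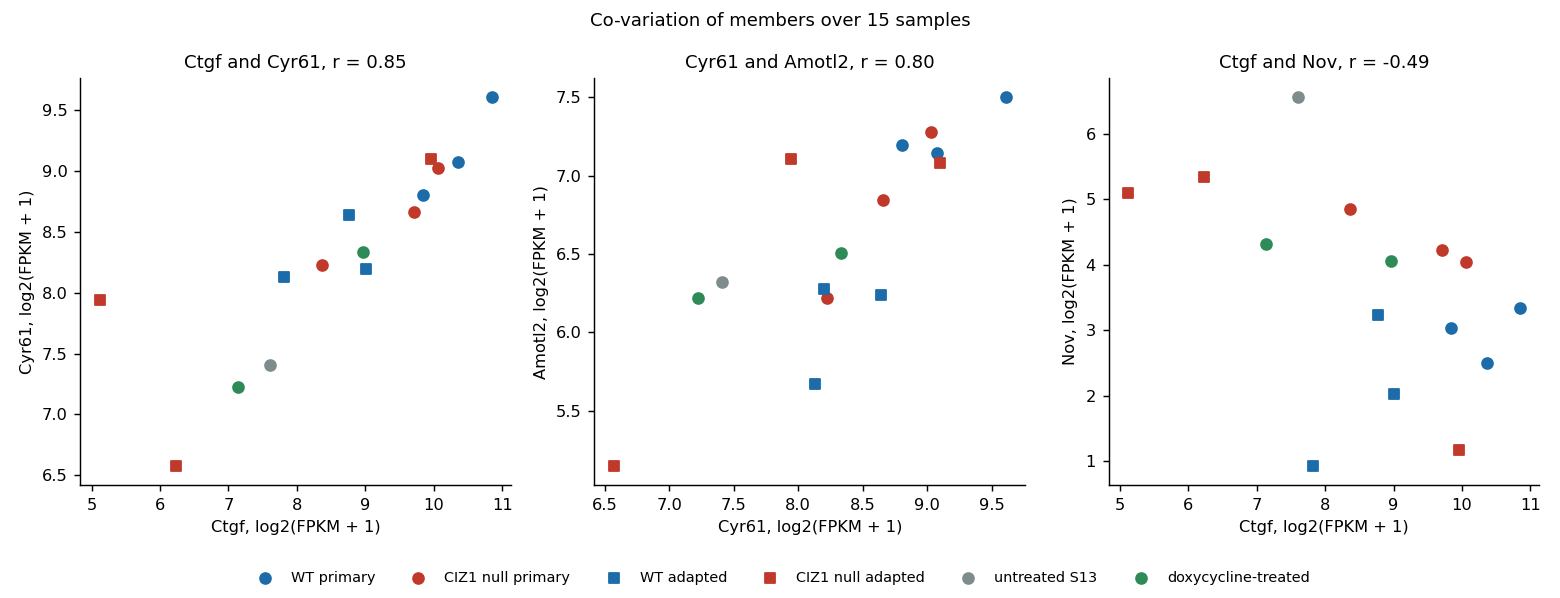
Levels of Cyr61 against Ctgf, Amotl2 against Cyr61 and Nov against Ctgf in the 15 samples, on the log2(FPKM + 1) scale, coloured by group. The 15 points for Ctgf and Cyr61 follow a line (r = 0.85), while Nov is highest in S13 and in CIZ1 null lines with low Ctgf (r = -0.49).

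Among 10798 single-symbol units with a mean of at least 5 FPKM, the pattern most like that of Ctgf over the 15 samples was that of its antisense neighbour Gm15270 (r = 0.999), then Lrrfip1 (0.93) and 1810055G02Rik (0.93). For Cyr61 it was Gm17501 from the same locus (0.98), Hacd1 (0.95) and Tjap1 (0.91). Nov was most like Dscr3 (0.88), Gm6055 (0.87) and Sec14l1 (0.86). Wisp1 was closest to Ncam1, a neural cell adhesion molecule (0.97), Fhl2, a LIM-domain cofactor (0.95) and F2rl1, a protease-activated receptor (0.94). Wisp2 was nearest to Jph2 (0.95), 2200002D01Rik (0.94) and Deaf1 (0.91), and Ankrd1 to Gm9892 (0.92), Gm12346 (0.91) and the serotonin receptor Htr2a (0.91). Amotl2 was nearest to the LIM protein Fhl1 (0.92) and Fance (0.89).

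Contractile markers ranged widely between samples. The summed FPKM of Acta2, Tagln, Cnn1, Myh11 and Des, of which fibroblasts in culture also express the first 3, was 7667 to 9825 in WT primary and 1371 to 3484 in WT adapted cells, and 4481 to 7910 and 448 to 5399 in CIZ1 null cells. Among the 6 adapted lines the sum was highest in E13.15, where Ctgf, Cyr61, Wisp1 and Ankrd1 were highest and Nov was at 1.25 FPKM, and lowest in E14.2, where Cyr61 and Amotl2 were lowest and Nov highest. Ctgf was lowest and Amotl2 highest in E13.17, where the sum was 1572. Myh11, which defines smooth muscle, was at 2.18 to 17.6 FPKM in primary and at 0 to 8.24 in adapted cells. The part of these markers, and of the fibroblast markers whose sum was lower in the adapted lines, in the changes of the 7 genes was not tested.

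Genes around the 7 in the same pathways were read from lists drawn up by function. Of 15 Hippo kinases and upstream regulators, 4 rose on adaptation over both genotypes and none fell (median change 0.07, beside -0.05 over all units), while 14.1% of all units were called higher and 19.1% lower in this fit. Stk3, the MST2 kinase, was at a mean of 8.31 FPKM in primary and 19.8 in adapted cells, a log2 change of 1.12 (SE 0.15, adjusted p = 4.7e-04, limma). Nf2 (0.47), Sav1 (0.43) and Amot (0.50), which activate or scaffold the kinases or bind YAP, rose by less, and Sav1 and Amot lost the call in 1 and 10 of 18 alternatives. Stk3 was also called higher in WT cells (0.91, adjusted p = 0.0227) and in CIZ1 null cells (1.33, adjusted p = 0.0435), and the replicate block gave adjusted p of 0.0670 and 0.0972.

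Of 8 genes for YAP, TAZ, the TEAD factors and their VGLL competitors, 3 fell over both genotypes and none rose (median -0.48), beside the same 19.1% of units lower and 14.1% higher. Tead2 changed by -0.91 (SE 0.14, adjusted p = 8.4e-04, limma), Tead4 by -0.73 (adjusted p = 0.0071) from a mean of 3.22 to 1.55 FPKM, and Yap1 by -0.59 (adjusted p = 0.0217) from 62.7 to 41.1 FPKM. Yap1 lost its call in 3 of 18 alternatives. Wwtr1, which encodes TAZ, stood at 28.3 and 28.1 FPKM (change -0.01, SE 0.14), and Tead1 (-0.25) and Tead3 (-0.44) were not called. Tead2 was called in WT cells (-1.03, adjusted p = 0.0375, or 0.0634 with the replicate block) and none of the 8 in CIZ1 null cells.

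Of 19 other genes widely used as YAP or TAZ targets (Lats2 and Ptpn14 stand in the kinase list too), 5 fell and 1 rose over both genotypes (median -0.43), where 19.1% of units were lower and 14.1% higher, so the count is close to the background. Nuak2, a kinase of the AMPK family, had a change of -1.84 (SE 0.21, adjusted p = 2.0e-04, limma) from a mean of 11.4 to 2.59 FPKM, and was called in both single-genotype comparisons as well (-1.91 and -1.76), with adjusted p of 0.0622 and 0.0721 under the replicate block. Ccdc80 (-2.08), Dock5 (-0.84), the receptor kinase Axl (-0.75) and Rbms3 (-0.60) also fell, and Foxf2 (0.67) rose, the last in 6 of 17 alternatives and Rbms3 in 9 of 18. Axl and Rbms3 were called lower in WT cells too, so 3 of 19 were called there beside 6.68% of units lower, none of them with the replicate block.

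Receptors that bind CCN proteins were read in the same comparison. Of 9 integrins, LRP receptors and a syndecan, 4 integrin chains fell over both genotypes and none of the 9 rose (median -0.48), beside 19.1% of units lower and 14.1% higher. Itgb1, Itgb5, Lrp1, Lrp6 and Sdc4 did not pass. Itga5, the fibronectin receptor chain, went from a mean of 247 to 58.8 FPKM (-2.08, SE 0.31, adjusted p = 6.7e-04, limma), Itgb3 from 14.1 to 3.26 (-2.20), Itga6 from 14.3 to 3.48 (-1.79) and Itgav from 107 to 49.6 (-1.14). All 4 were called in 18 of 18 alternatives. In WT cells these 4 and Itgb1 (-0.79, adjusted p = 0.0424) were called, 5 of 9 beside 6.68% of units lower, of which 3 remained called with the replicate block, and in CIZ1 null cells Itga6 alone was (-1.67, adjusted p = 0.0483, or 0.112 with the block). None of the genes on these lists was called for loss of CIZ1 in primary or adapted cells, for the interaction or for doxycycline (limma). At an unadjusted p under 0.05 (limma), loss of CIZ1 in primary cells had 3 of 18 tested genes of the other YAP or TAZ targets. These were Igfbp3 and Gadd45a (higher) and Nuak2 (lower). It had 2 of 9 receptors and partners (Itga5 and Sdc4, lower) and 0 of the 15 Hippo genes and 0 of the 8 YAP, TAZ and TEAD genes. In adapted cells it had 2 of 19 other targets (Fjx1 and Gadd45a, both higher) and 0 on the remaining lists. Of all units, 6.26% in primary and 4.025% in adapted cells had such a p.

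**Figure D5:**
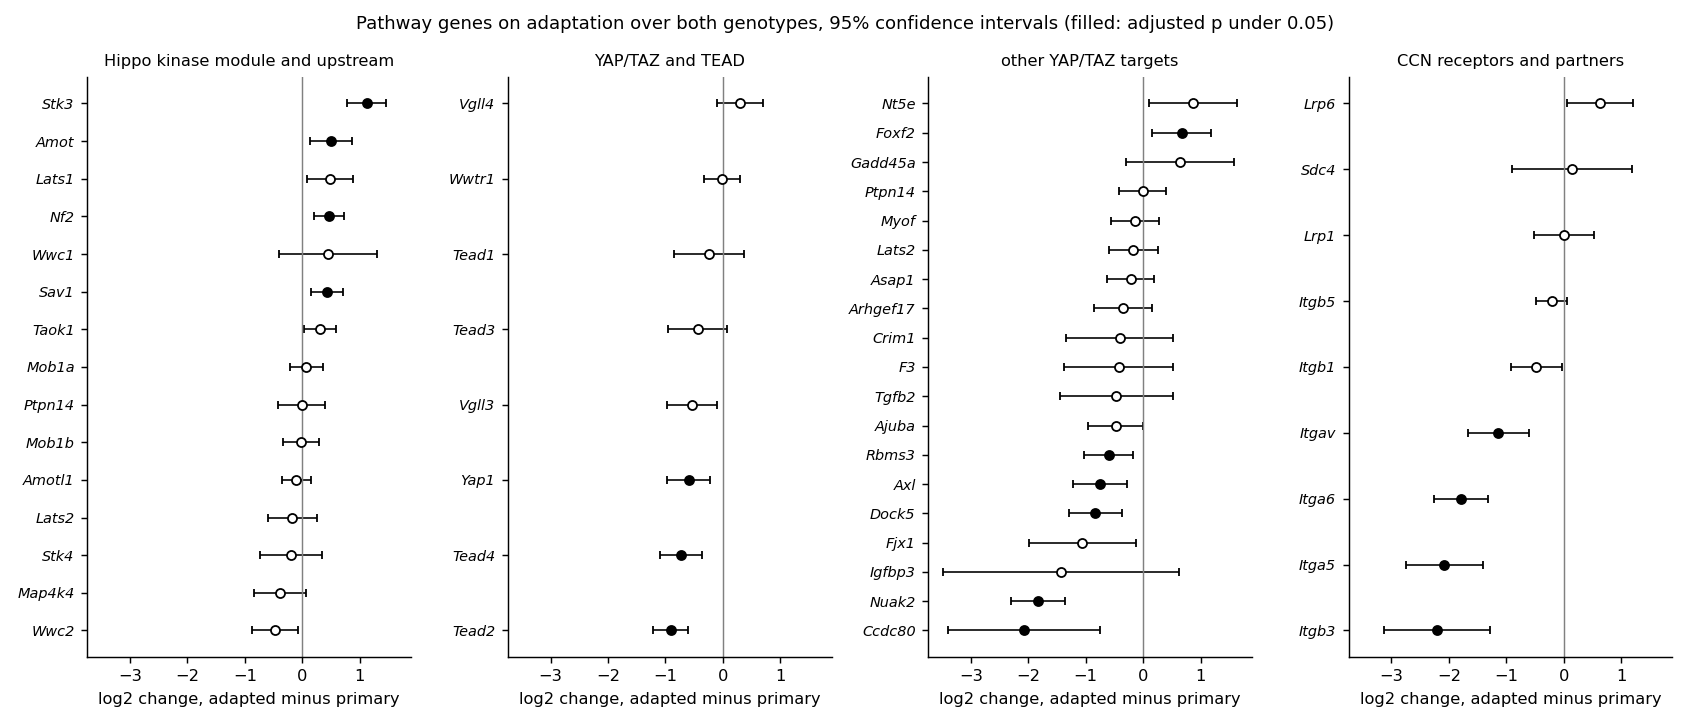
Log2 change on adaptation over both genotypes (x axis, limma, 6 primary against 6 adapted samples) with its 95% confidence interval for the genes of 4 lists, filled where the adjusted p was under 0.05. The 4 filled integrin chains lie between -2.20 and -1.14 and the 4 filled Hippo regulators between 0.43 and 1.12.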

How the data were processed

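RNA-seq of poly(A)-selected, paired-end libraries covered 15 samples, grouped by their labels. The embryo of 12 was found by identity of their values with the study's per-line tables. Per the labels and the study's methods, the authors trimmed reads with cutadapt 1.8.3, aligned them to GRCm38 with HISAT2 2.0.5 and made the deposited FPKM with the Cufflinks suite (Cuffdiff 2.2.1). Deposited group comparisons (means, fold changes, p and q values) were not used. The source name of the untreated sample taken as E13.17 reads S13.

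From the FPKM, log2(FPKM + 1) of units with a mean of at least 1 FPKM over the samples compared was fitted with limma 3.58.1 (R 4.3.3, lmFit and eBayes with trend), and p was adjusted over all units by Benjamini-Hochberg (threshold 0.05). Fold changes of low genes are understated on this scale. Populations from separate embryos were the replicates. The fits were also run on simulated data with independent noise and no pairing by embryo, so this does not bear on the stability of the calls. Each adapted line comes from the primary population of the same embryo. The deviations of such pairs from their group means correlated at 0.21 for E14.4, 0.15 for E13.1, -0.01 for E13.8, -0.02 for E14.2, 0.11 for E13.15 and 0.09 for E13.17, and the embryo was a block in an alternative. Other alternatives were a pseudocount of 0.1, no filter, a mean of at least 5 FPKM, quantile normalization, all 4 groups in a single fit, all 4 untreated primary CIZ1 null samples, each sample left out and the other unit of a locus. Sign-flip tests used SciPy 1.17.1.

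Members and gene lists were chosen with earlier results of these data known. Named genes are the members, every listed gene called in a comparison, YAP, TAZ and TEAD genes, those of unadjusted p under 0.05 for loss of CIZ1 (chosen after their values were seen), and the 3 units most correlated with each member, of which 1 is not reported here. Promoter letters are from RefSeq, and coordinates count from 1.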

Additional observations from a re-analysis of the deposited data

How the results depend on the processing

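Of 728 alternative values of the changes of the 7 genes, 693 were counted as the same. For most this meant the same side of the threshold and, where the change exceeded its error, the same direction. For the per-embryo test with an embryo left out, it meant only a mean that moved by less than the SD over embryos. Wisp1 missed the threshold in each of those (p = 0.0625, sign-flip permutation), and these are not among the lost calls. A further 27 lost the call, 8 gained it and 0 reversed. Most of the 728 belong to changes that were not called and had no call to lose. The 27 losses fell on 4 called changes. In WT cells Ctgf was called in 4 of 12 alternatives, Wisp1 in 10 of 13 and Amotl2 in 8 of 13, and over both genotypes Ctgf was called in 7 of 18. For adaptation in WT cells the 3 called genes became 1 with all 4 groups in a single fit and 1 with the replicate block (Wisp1 in both), and 0 to 3 with each sample left out. It was 0 when any single one of the 3 WT primary samples was left out, where the units called fell from 1902 to between 62 and 70. The cause was not tested. Ctgf in WT cells also missed the threshold without a filter on FPKM (adjusted p = 0.0782), with adapted E13.8 left out (0.0652) and after quantile normalization (0.0519). In CIZ1 null cells the count went from 0 to 1 (Wisp1) with a mean FPKM of at least 5, with all 4 groups in a single fit and with all 4 untreated primary CIZ1 null samples, and to 0 to 2 with each sample left out, the 2 being Ctgf and Wisp1 without adapted E13.15. Over both genotypes it went from 2 to 1 without a filter, after quantile normalization and with all 4 untreated primary samples, in each case because Ctgf missed the threshold, and to 1 to 4 with each sample left out, the 4 without adapted E13.15. Ctgf passed there in 7 of 18 alternatives. The replicate block changed the units called from 1902 to 499 in WT cells and from 975 to 10 in CIZ1 null cells. It ended the calls of Ctgf and Amotl2 in WT cells and changed no other call of the 7 genes. Loss of CIZ1, the interaction and doxycycline gave 0 called genes of the 7 under all alternatives run. The other unit of the same locus, an alternative chosen after seeing the data, changed no call. Quantile normalization kept Wisp1 as the gene past the per-embryo test, which 5 pairs cannot pass (smallest p 0.0625). Depth, known only in relative terms, limits values under 1 FPKM, such as Ankrd1 in 2 adapted lines. Protein lengths and identities were not analysed here.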
